A study of Drosophila melanogaster with 2 samples.

Results

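The peaks described here are those of the X chromosome in a map of the fly protein CG11696, and they numbered 582 of the 2908 peaks of the list used once overlapping peaks had been reduced to the strongest. Protein-DNA contacts of a fusion of CG11696 with enhanced green fluorescent protein were mapped by chromatin immunoprecipitation and sequencing (ChIP-seq) with an antibody against the tag. The samples were 2 biological replicates of a single group, whole embryos of 0 to 24 h from the Drosophila melanogaster strain CG11696-GFP, which carries the fusion as an inserted transgene. The sex of the embryos was not collected, all tissues were mixed, and no group without the fusion was analysed here. Members were chosen by position alone: every peak of the conservative list, which combines both replicates, with chromosome X in its first column. That list named 621 peaks on X. The 39 that overlapped a stronger one were dropped, and their median signal value was 12.2. Arms 2L, 3L and 3R, with 560, 651 and 629 peaks after the same step, served for comparison.

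The X is the sex chromosome of the fly, present in 2 copies in females and 1 in males. In males its transcription is raised by the dosage compensation complex, which binds along the X and is recruited from a limited set of entry sites. CG11696 is predicted to bind DNA through zinc fingers, and its own gene lies on X. Peaks are described by their summit, the base of highest signal, and by the authors' signal value, a measure of strength in units of their peak caller that is not scaled between lists, so values of the 2 replicates, which come from separate lists, and their SD can include a difference in scale. A transcription start site is written TSS below, and a protein-coding gene is called bound where a summit lies within 500 bp of one of its TSSs.

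The X summits were on average richer in A and T than the sequence beside them. Windows of 50 bp to either side of the summits held 65.2% ± 9.06 A+T (SD over 582 peaks), against 57.2% ± 9.99 in flanking windows of the same width, moved by 300 bp left and right, and 57.5% over all windows of that width on X. In 343 of the 582 peaks (58.9%) the summit window was richer in A+T than both of its flanks, and in the others it was not. Intronic summits held 65.7% ± 8.04 (SD, n = 318), summits near a TSS 64.4% ± 10.2 (n = 192) and intergenic ones 65.4% ± 9.02 (n = 47), each above the level of the flanks. The arms had nearly the same values, 65.5% ± 9.62 at their summits and 56.9% ± 9.81 in their flanks. The summit windows of the 5 strongest X peaks that touch no annotated exon are shown because they are the strongest sites and span the range, from 51.5% A+T at dod, below the mean of the flanks, and 59.4% at Raf to 77.2% in Dok. They are given on the plus strand of dm6, with runs of at least 8 A or T in capitals. They lie at chrX:7337003-7337103 beside CBP, chrX:7324960-7325060 in an intron of Dok, chrX:2646393-2646493 at sgg, chrX:2300630-2300730 in an intron of Raf and chrX:21345197-21345297 beside dod.
CBP peak: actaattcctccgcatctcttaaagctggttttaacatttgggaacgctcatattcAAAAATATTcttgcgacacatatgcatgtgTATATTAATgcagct
Dok peak: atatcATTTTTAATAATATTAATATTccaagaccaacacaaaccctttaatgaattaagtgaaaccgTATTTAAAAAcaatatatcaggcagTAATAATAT
sgg peak: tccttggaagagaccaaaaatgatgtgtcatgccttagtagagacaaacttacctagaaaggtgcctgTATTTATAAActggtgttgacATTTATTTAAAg
Raf peak: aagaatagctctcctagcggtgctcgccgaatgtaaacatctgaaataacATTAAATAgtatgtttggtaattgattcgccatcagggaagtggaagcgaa
dod peak: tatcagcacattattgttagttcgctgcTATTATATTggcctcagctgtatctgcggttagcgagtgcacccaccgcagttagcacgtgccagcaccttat

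**Figure D1:**
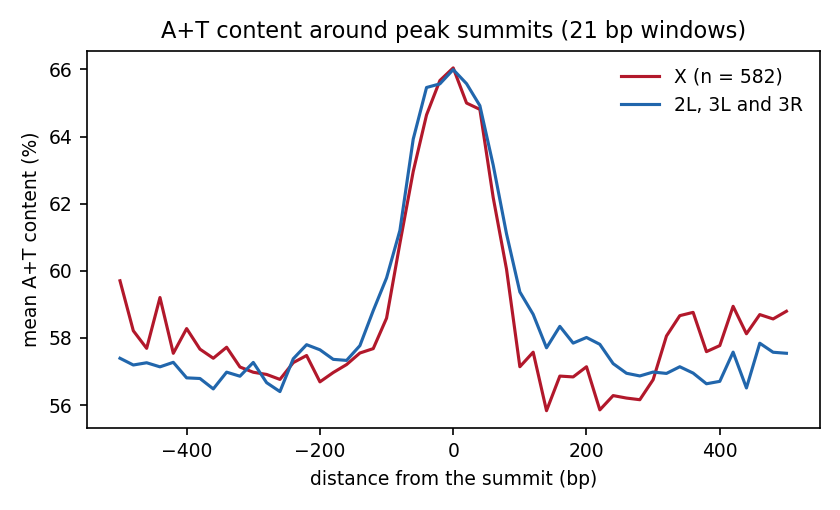
Mean A+T content (percent, in windows of 21 bp) against the distance from the summit in bp, for the 582 X peaks (red) and the peaks of 2L, 3L and 3R (blue). Both lines peak at the summit, at 66.0%, and fall to about the level of the flanks within some 100 bp.

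No 6-letter sequence of those that rose most was in a majority of the X summit windows. All 6-letter sequences, both strands merged, were ordered by the excess of summit windows over the mean of the flanks, divided by the square root of that mean plus 3, and CTATTA came first by this score: 67 of 582 summit windows held it (11.5%), against 2.49% of flanking windows and 4.03% of all windows of the same length on X. The sequence was chosen on these X values, so they are a description. On the arms, which did not enter the choice, 8.8% of summit windows and 3.91% of flanking windows held it. Of the 9 next on X 8 were made of A and T alone, such as ATATTA, in 20.3% of X summit windows and 7.56% of flanks, and AATATA, in 24.7% and 10.4%. In percentage points these and other A and T sequences rose more than CTATTA did, for example from 15.6% to 30.8% (AAATAT). The remaining sequence of the first 10 was AGTGTA, in 9.45% of X summit windows and 2.66% of flanks, and in 6.63% and 3.91% on the arms. The 4 strongest X peaks outside the first set that hold CTATTA or its reverse TAATAG, again away from exons, are shown with that sequence in capitals. They lie beside lncRNA:CR45541 (chrX:9583867-9583967) and in introns of Smr (chrX:12735773-12735873), Pdcd4 (chrX:13749496-13749596) and C3G (chrX:6794356-6794456).
lncRNA:CR45541 peak: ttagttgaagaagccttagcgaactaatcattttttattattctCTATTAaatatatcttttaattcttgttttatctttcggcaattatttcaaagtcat
Smr peak: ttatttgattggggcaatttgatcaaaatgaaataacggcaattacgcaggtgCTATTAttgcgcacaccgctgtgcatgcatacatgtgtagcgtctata
Pdcd4 peak: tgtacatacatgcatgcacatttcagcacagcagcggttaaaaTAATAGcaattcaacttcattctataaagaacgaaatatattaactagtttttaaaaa
C3G peak: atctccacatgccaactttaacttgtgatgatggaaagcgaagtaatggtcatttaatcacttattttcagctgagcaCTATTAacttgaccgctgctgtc

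The known fly promoter and repeat sequences searched included both rare and frequent ones under the X summits. The 13 sequences searched, on both strands, were GAGAGAGA, CACACACA, TATCGATA, GGTCACAC, CAGCTGNT, AACAGCTG, CAGGTAG, GCAGCAGC, AAAAAAAA, ATATATAT, CGATAGCG, TGCATGCA and CCACGTGG. The repeat CACACACA, which is dense on X, was in 10 summit windows (1.72%), against 6.44% of flanking windows and 3.02% of all X windows. GAGAGAGA, a site of GAGA factor and related to the entry sites of dosage compensation, was in 5 (0.859%), against 1.72% of flanks and 0.783% of all X windows. TATCGATA, the DNA replication-related element, was in none of the 582 windows, which allows a share of up to 0.515% (counting error only), and in 14 of the arm windows (Fisher's exact adjusted p = 0.125). TGCATGCA leaned the other way, with 6 X windows (1.03%) against 4 arm windows (0.217%, Fisher's exact adjusted p = 0.104). It was in 0.43% of the X flanks and 0.266% of all X windows. Only AAAAAAAA differed between X and the arms among the 13, with 70 X windows (12.03%) against 146 (7.93%, two-sided Fisher's exact adjusted p = 0.0444). It was as frequent in the X flanks (11.3%), and over all windows of the chromosomes it stood at 8.34% on X against 4.93% on the arms. The call of Fisher's exact test was lost without 3R (adjusted p = 0.215), in the stronger 50% of peaks (0.857), without replicate 1 (0.889), without replicate 2 (0.145), with overlapping peaks kept (0.0576) and in windows of 25 bp to either side (0.375).

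X peaks sat in introns more often than the peaks of the arms, and less often near a TSS or between genes. Of the 582 X summits, 318 were intronic (54.6%, 95% Wilson interval 50.6 to 58.6), against 729 on the arms (39.6%, 37.4 to 41.9), a ratio of 1.38 (two-sided Fisher's exact adjusted p = 2.0e-09 over 7 classes). The 3 arms lay between 38.2% on 3L and 41.5% on 3R, so X stood above each of them. Within 500 bp of a TSS there were 192 X summits (33.0%, 29.3 to 36.9) against 763 (41.5%, 39.2 to 43.7), a ratio of 0.796 (Fisher's exact adjusted p = 6.1e-04). Between genes X had 47 summits (8.08%, 6.13 to 10.6) and the arms 273 (14.8%, 13.3 to 16.5), a ratio of 0.544 (Fisher's exact adjusted p = 5.8e-05). Peaks are not independent replicates, and these tests cover the counting of called peaks only.

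The X itself holds more intron and less intergenic sequence than the 3 arms together, though not more intron than 3R. Introns outside TSS windows cover 40.5% of its bases against 36.7% on the arms, and intergenic sequence 20.2% against 25.5%. On 3R alone introns cover 40.7% of the bases, and 41.5% of its summits were intronic. The same lean appeared in the sub-threshold peaks, the weaker peaks of the ranked list that did not pass, of which 44.7% were intronic on X and 38.2% on the arms. Set against these, the intron excess on X remained, with a ratio of odds ratios of 1.41 (95% interval 1.16 to 1.7, in a logistic model added after seeing the data). So did the deficit near TSSs (0.721, 0.589 to 0.882), while the interval of the intergenic deficit included equality (0.807, 0.581 to 1.12). The shares held in each replicate's own list. Replicate 1 had 55.1% of its 425 X summits in introns, against 37.8% to 38.5% on the 3 arms, and replicate 2 had 55.5% of 440, against 38.5% to 42.1%.

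**Figure D2:**
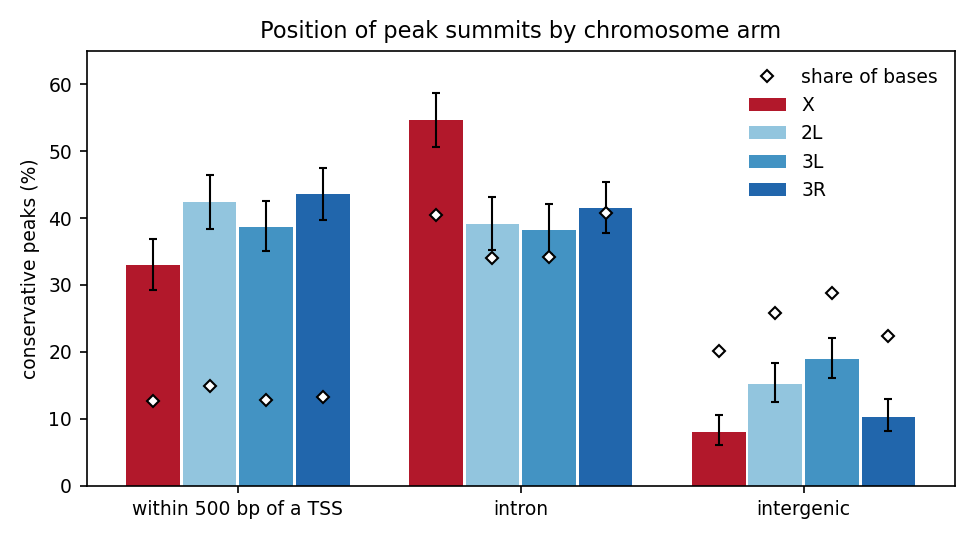
Share of conservative peaks (percent, bars with 95% Wilson intervals) by position of the summit on X (red, n = 582), 2L (n = 560), 3L (n = 651) and 3R (n = 629), with the share of the bases of each chromosome as open diamonds. The X bar for introns, 54.6%, is above those of the 3 arms, and its bars for TSS windows and intergenic sequence are the lowest.

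Exons held few X summits. Coding exons cover 13.9% of the X and had 3 of its summits (0.515%), 3' UTRs 11 (1.89%), 5' UTRs 7 (1.2%) and other exons 4 (0.687%). None of these shares differed detectably from the arms (Fisher's exact adjusted p from 0.137 to 0.775). Summits near a TSS were mostly upstream, 142 of 192 on X (74.0%) and 598 of 763 on the arms (78.4%). Their median distance from the nearest TSS was 189 bp on X and 131 bp on the arms, and 24.0% of X summits in TSS windows lay within 100 bp of the TSS against 35.5%. The last 2 differences were not tested.

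Intronic X peaks lay mostly within 5000 bp of a TSS. Their median distance from the nearest TSS was 2796 bp, and 95 of 318 (29.9%) were farther than that, near the 32.0% on the arms. Their protein-coding hosts were 173 genes with a median length of 20126 bp, against 2521 bp for all protein-coding genes of X. Counted once per pair of a peak and a host, the host had a median length of 28407 bp for these peaks and 49266 bp for the intronic sub-threshold peaks of X. On the arms the hosts had a median length of 19096 bp and all genes 2080 bp. Genes over 50 kb made up 3.14% of X genes and 2.03% of arm genes.

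The X peaks were somewhat stronger than those of the arms. Since the sex of the embryos was not collected, the number of X copies per copy of an arm is unknown for this comparison and for those of peak number, and how the control takes account of it was not examined. Their median signal value was 121 (quartiles 86.5 and 197), against 111 on 2L and 110 on both 3L and 3R, and 334 of 582 exceeded the arm median of 110 (57.4%, 53.3 to 61.3, ratio 1.15, two-sided Fisher's exact p = 0.00197, 0.00526 adjusted over the 8 single comparisons of X with the arms). Intronic X peaks had a median of 122 against 109 on the arms, X peaks near a TSS 135 against 117, and intergenic ones 94.96 against 103. In the list of replicate 2 alone the median was 79.9 on X and 71.0 to 74.2 on the arms (ratio 1.14, Fisher's exact p = 0.0134). In that of replicate 1 the medians were 72.7 and 70.3 to 72.5, and the call was lost without replicate 2 (ratio 1.06, Fisher's exact p = 0.312).

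Of the 20 strongest X peaks 11 lay within 500 bp of a TSS and 9 in introns, near or in genes of varied known roles. All 20 overlapped a thresholded peak of each replicate. The highest was 299 bp upstream of CBP, a calcium-binding protein gene nested in CG1677 (chrX:7336817-7337332), with signal values of 845 in replicate 1 and 815 in replicate 2. A second peak 714 bp away in the same intron of CG1677 had 426 and 395. Next came a peak in an intron of Dok, an adaptor downstream of tyrosine kinases (chrX:7324782-7325232), with 667 and 662. All of these peaks lie within CG1677.

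The promoter peak of sgg, the gene of the fly GSK-3 kinase that acts in Wnt signalling (chrX:2646193-2646658), had 514 in replicate 1 and 544 in replicate 2. In Raf, the kinase at the head of the MAP kinase cascade (chrX:2300507-2300850), the values were 476 and 603, the widest spread of the 20 (SD 16.6% of the mean, against a median of 3.37%). An intron of N, the Notch receptor gene, had a peak 10654 bp from the nearest TSS (chrX:3162294-3162709) with 463 and 510. The peak at the promoter of N itself was much weaker, with 39.9 and 37.1.

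The other strong X peaks had replicate values between 290 and 687. Ugalt, a transporter of UDP-galactose, had 687 and 645 beside its TSS, and dod, a peptidyl-prolyl isomerase gene, 461 and 482. In an intron of ph-p, a Polycomb gene (chrX:2137229-2137489), they were 444 and 466. That summit lies 509 bp upstream of a ph-p TSS, just beyond the window of 500 bp. Mnt, which encodes a partner of Max that opposes Myc, had 404 and 394 near its TSS. Syx4, a syntaxin gene within kirre, had 391 and 376, Mgstl, a microsomal glutathione transferase gene, 389 and 404, and ND-ASHI, a complex I subunit gene, 332 and 373. An intron of sn, the fascin gene of actin bundles, had 325 and 317, and one of Tlk, the tousled-like kinase gene, 315 and 330. The remaining 5 of the 20 were nearest to CG2865, CG9921, CG32772, lncRNA:CR45541 and CG1812, with means from 306 to 431.

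**Figure D3:**
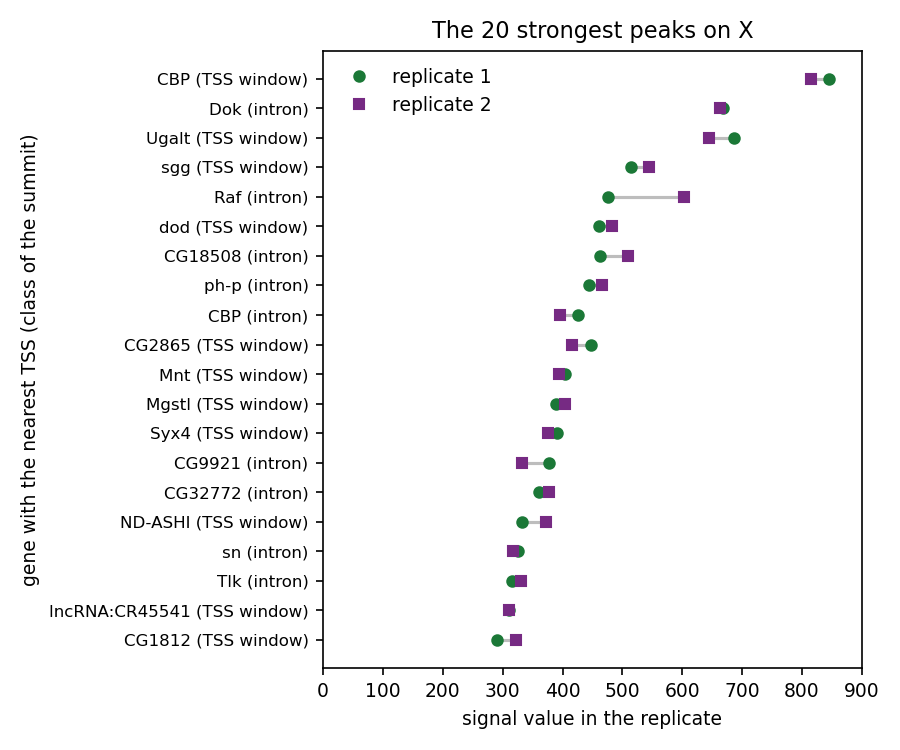
Signal value in replicate 1 (circles) and replicate 2 (squares) at the 20 strongest X peaks, labelled by the gene with the nearest TSS and the class of the summit, in the order of the pooled signal value. The values run from 845 at CBP to 290 at CG1812, both in replicate 1, and the replicates lie apart most at Raf.

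The conservative list keeps peaks whose ranks agree between replicates, so agreement over the 582 X peaks is in part set by how they were listed and is given as a description. Every one overlapped a ranked peak of both replicates, and the values of the 2 replicates had a Spearman's rho of 0.827 across the peaks, which share libraries and are not independent. The values of replicate 2 relative to replicate 1, in their separate lists, had a median log2 ratio of 0.09 on X (SD 0.39) and of 0.08 on the arms (SD 0.4). The thresholded list of replicate 1 held 389 of the 582 (66.8%, 62.9 to 70.5), against 61.3% on the arms (ratio 1.09, two-sided Fisher's exact p = 0.0161, 0.0254 adjusted). That of replicate 2 held 402 (69.1%, 65.2 to 72.7) against 65.5% (ratio 1.05, Fisher's exact p = 0.119). The first of these differences did not pass with 50% reciprocal overlap (ratio 1.07, Fisher's exact p = 0.0944) or among the stronger 50% of peaks (1.01, p = 0.781). Both lists held 327 X peaks, with a median pooled value of 184, and 118 were in neither, with a median of 75.4.

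**Figure D4:**
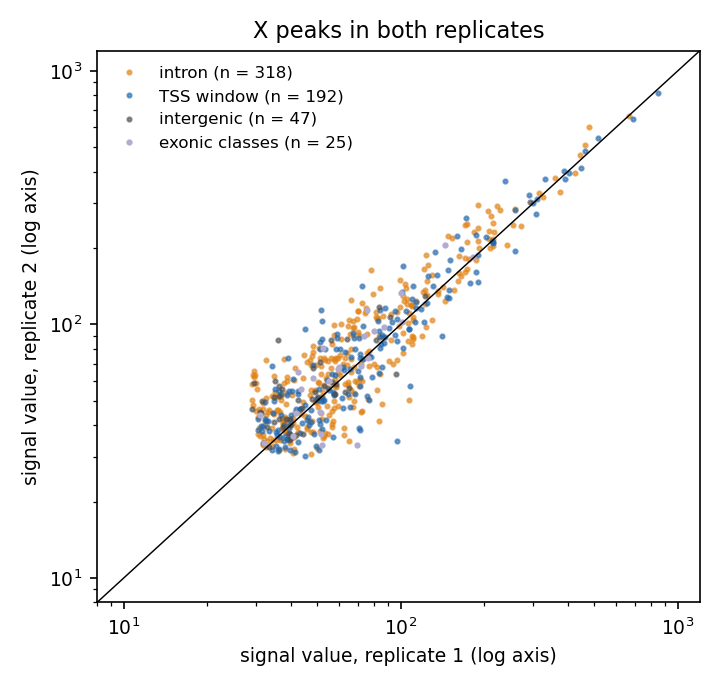
Signal value in replicate 2 against replicate 1 (both log axes) for the 582 X peaks, coloured by class, with the line of equal values. Intronic peaks (n = 318) and peaks near a TSS (n = 192) share the same cloud around the line, which is widest at low values.

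The X had more peaks for its size than the 3 arms together, and the difference from 2L and 3L was small. It held 24.7 peaks per Mb, 2L 23.8, 3L 23.2 and 3R 19.6. The ratio of X to the arms was 1.12 per base (two-sided exact binomial p = 0.0141, 0.0254 adjusted over the 8 comparisons). Without 3R it was 1.05 (exact binomial p = 0.297), and it was 1.08 (p = 0.105) with the peaks added back that pass the threshold but are missing from the thresholded list. Adding them left X at 582 peaks and raised the arms from 1840 to 1915, both counted after overlapping peaks had again been reduced to the strongest. The count thus rose on the arms only. With them the ratio per TSS was 1.14 and that per sub-threshold peak 1.18, in place of the higher values below. On 3L and 3R 5 and 4 of the complete 1 Mb bins held no peak, and on X none. Per 100 annotated TSSs X had 14.9 peaks, against 12.2 on 2L, 14.3 on 3L and 11.5 on 3R (ratio 1.18, exact binomial p = 4.8e-04, 0.00194 adjusted). Per 100 sub-threshold peaks it had 3.8, against 3.27, 3.36 and 2.72 (ratio 1.23, Fisher's exact p = 2.5e-05, 2.0e-04 adjusted), a call lost with the optimal list (1.08, p = 0.09).

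Peaks were spread along the X in dense and sparse stretches. The 23 complete 1 Mb bins held from 2 to 41 peaks, with a median of 25. Bins 3, 4 and 8, counted from the telomeric end, had 41 each, and bins 7 and 14 had 40. Bin 3 includes ph-p, Raf, sgg, Ugalt and Syx4, and bin 8 the CBP and Dok peaks. The lowest counts were 11 in bins 1 and 19, 12 in bin 21 and 2 in bin 23, the last complete bin before the centromeric end. The thresholded lists of the replicates followed the same profile, with a Spearman's rho of 0.947 between their counts over the 23 bins. Over these bins, which share libraries, the counts of peaks had a rho of 0.315 with the number of TSSs and 0.698 with that of sub-threshold peaks. Bin 4, with 41 peaks, had 112 TSSs, and 70.7% of its summits were intronic. Bin 20, with 22 peaks, had 244 TSSs. The widest gap between neighbouring summits on X, from 21594077 to 22479725, was 885648 bp, and the widest on an arm was 599365 bp, on 2L. Stretches beyond the first and last summits are not counted as gaps. On 3R the first summit lay at 4189308, and on 3L the last lay at 22878892 of 28110227 bp.

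**Figure D5:**
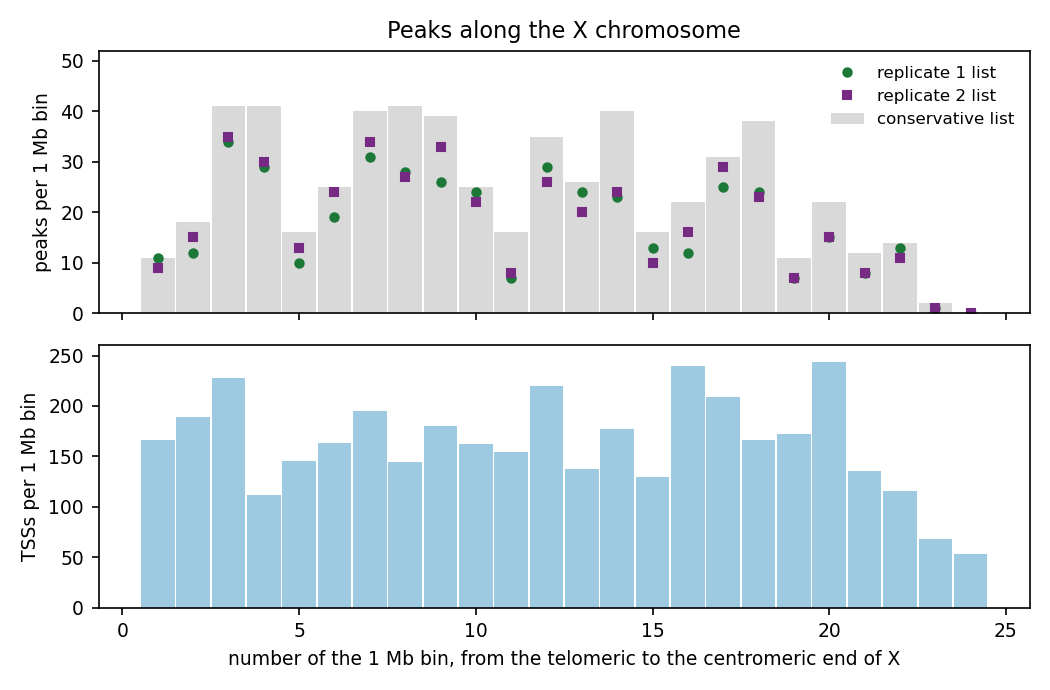
Peaks per 1 Mb bin along X in the conservative list (grey bars) and in the thresholded lists of replicate 1 (circles) and replicate 2 (squares), above the number of annotated TSSs per bin. The bars run from 2 to 41 over the complete bins, the replicates rise and fall with them, and the last bin is incomplete.

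X summits were close neighbours more often than those of the arms. Of 582, 284 had another within 5 kb (48.8%, 44.8 to 52.9), against 43.2% on the arms (ratio 1.13, two-sided Fisher's exact p = 0.0191, 0.0254 adjusted). The shares were 43.6% on 2L, 47.6% on 3L and 38.3% on 3R. The difference did not pass without 3R (1.07, Fisher's exact p = 0.245) or at 10 kb (1.05, p = 0.204). Chaining neighbours within 5 kb gave 298 single summits, 56 pairs, 28 triplets and 18 larger groups on X.

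The largest group lay in CHES-1-like, a forkhead transcription factor gene. Its 12 summits spanned 16.2 kb (from 7690839 to 7707022), with pooled signal values from 60.6 to 443, and 8 of the 12 overlapped a thresholded peak of replicate 1 and 7 one of replicate 2. In a group that ran from the promoter peak of CG2865 into Raf 7 summits spanned 14996 bp, with values from 98.2 to 1087.5. In Tlk 6 spanned 11.4 kb, all of them in replicate 1's list and 5 in replicate 2's. At ph-p 4 summits spanned 3445 bp, had values from 117 to 902 and were in both lists.

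By whole genes, counting summits in the gene and 500 bp around it, kirre had the most. This gene for an immunoglobulin-domain adhesion protein of muscle founder cells is 394 kb long and had 13 summits, 9 intronic, with pooled values from 70.3 to 773. CHES-1-like followed with 12 over 27.0 kb, CG1677 with 11 over 124.7 kb, Drak, a kinase gene of the death-associated family, with 10 over 61.9 kb, and Raf and CG43658 with 8 each, over 48405 bp and 105012 bp. Of the 2196 protein-coding genes of X, 371 (16.9%) had at least 1 summit in this span, and 49 had 3 or more. Genes that overlap, such as CBP, Dok and CG1677, count the same summit.

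Fewer protein-coding genes were bound at the promoter on X than on the arms. Of 2196 X genes 197 were bound (8.97%), against 932 of 8817 (10.6%, ratio 0.849, two-sided Fisher's exact p = 0.0276, 0.0316 adjusted), and over X and the arms together 10.3% were. The call was lost in several settings, without replicate 1 (0.865, Fisher's exact p = 0.105) and without replicate 2 (0.892, p = 0.194) among them. These shares are the background for the gene groups below, which are described with no test. The groups were chosen by their known roles, but with earlier results of these data known.

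Cytosolic ribosomal protein genes were the most often bound of these groups on X. Of the 14 on X 11 were bound (78.6%, background 8.97%), against 23 of 56 on 2L, 3L and 3R (41.1%). The peaks of the 11 bound genes on X had pooled signal values from 49.6 to 165, against a median of 135 for all X peaks near a TSS. Only those of RpS28b and RpL17 were above that median. The highest was at RpS28b, with 73.1 in replicate 1 and 98.5 in replicate 2, followed by RpL17 with 77.0 and 75.1, RpS10b with 76.5 and 50.3, and RpL22 with 64.7 and 53.2. The lowest was at RpL36, with 36.0 and 31.7. In the lists of single replicates 6 of the 14 were bound in replicate 1 and 3 in replicate 2. RpS14b, counted among the bound, lies next to its near-identical copy RpS14a, so reads of the pair may not be told apart.

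Neuronal genes had 6 of 19 bound (31.6%, background 8.97%). elav, the RNA-binding protein gene of neurons, had 148 in replicate 1 and 164 in replicate 2, and dnc, the cAMP phosphodiesterase gene of memory, 114 and 123. amn, a neuropeptide gene, had 61.2 and 51.1, and comt, the NSF gene of vesicle fusion, 32.3 and 49.5. Hk, a potassium channel subunit gene, and rdgB, a phosphatidylinositol transfer protein gene, had values between 35.4 and 39.5. In each replicate's own list 3 were bound. norpA, the phospholipase C gene of vision, had no promoter peak and an intronic one of 210 and 199.

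Cell polarity and cytoskeleton genes had 4 of 16 bound (background 8.97%) and 10 with a summit in or around the gene, against 16.9% of all protein-coding genes of X, with gene length not taken into account. Moe, which links actin to the membrane, had 257 and 283 at its promoter and 6 summits in all. cib, an actin-binding protein gene, had 108 and 57.0, par-6 of the polarity complex 51.2 and 79.9, and the small GTPase gene Cdc42 39.7 and 41.99. The summit counted for par-6 lies nearer to a TSS of CG8188, 123 bp from it. Away from TSSs, baz, a partner of par-6, had a peak of 145 and 206, and mys, an integrin gene, one of 125.2 and 171. Of chromatin genes 3 of 15 were bound, ph-p with 214 and 213 at its promoter, the topoisomerase gene Top1 with 48.1 and 69.1, and the heterochromatin protein gene HP1b with 54.9 in both. Smr, a corepressor gene, had 228 and 283 in an intron.

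Of genes that set sex and dosage 1 of 9 was bound (11.1%), a share near the background of 8.97% of protein-coding genes. It was Sxl, the master switch of sex determination, with 259 in replicate 1 and 196 in replicate 2. The 9 include the noncoding lncRNA:roX1 and lncRNA:roX2, and of X genes of the class ncRNA 5.18% had a summit within 500 bp of a TSS. None of the X-linked signal genes sisA, sc, upd1 and run had a summit in or around it, nor had mof, lncRNA:roX1 or lncRNA:roX2 of the dosage compensation complex. The signalling group had 2 of 17 bound, sgg and N (11.8%), also near the background. Patterning transcription factors had 0 of 23 bound, and 3 of them, ct, Bx and disco-r, had intronic peaks with values from 29.1 to 80.8. Of 15 genes of late or adult function, the yolk, chorion and pigment genes among them, 0 had a summit in or around the gene. Of all protein-coding genes of X 16.9% had one, and gene length was not taken into account in any of these groups. CG11696 itself (chrX:11573731-11576152) had no conservative peak, the nearest summit being 13292 bp away, though 6 ranked peaks lay in and within 500 bp of it, the highest with a score of 640 against the 830 at which the thresholded list ends.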

How the data were processed

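The authors deposited lists of peaks on assembly dm6, made per the file notes from aligned reads of each replicate together with a control, and thresholded on the irreproducible discovery rate (IDR), a measure of how well peaks keep their rank between replicates. Sonication gave fragments of 200 to 800 bp, per the labels. No aligner, peak caller or read depth is given in the sources used here, so the depth is unknown, and intervals cover the counting of called peaks only. The deposited signal value is the authors' peak strength in the units of their peak caller. The deposited score runs to 1000 and was 830 or more in the list used.

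The 2 ranked lists of the series also hold 16 columns on matched peak sets without a name, which were not used. Peaks of the conservative list (3154) were taken in order of signal value and dropped where they overlapped a stronger one by at least 1 bp, which left 2908. Replicate values are the highest signal value among the ranked peaks of that replicate that overlap the peak, and means are given with the SD of 2 replicates. Genes and TSSs came from Ensembl release 115 without transposable elements, and bases from the RefSeq version of dm6. Each summit took 1 of 7 classes, with a TSS window taking precedence, then 5' UTRs, coding sequence, 3' UTRs, other exons and introns, and intergenic sequence last. X was compared with 2L, 3L and 3R by two-sided Fisher's exact or exact binomial tests, adjusted by Benjamini-Hochberg within 7 classes, 13 sequences and 8 single comparisons, at a threshold of 0.05. Python 3.11.15, scipy 1.17.1 and statsmodels 0.14.6 were used. Fisher's exact test with its adjustment over 7 classes was checked on simulated counts, and the exact binomial tests and the logistic model were not. Alternatives were the optimal list, single replicates, stronger peaks, uncollapsed or added peaks, other arms and other windows. Genes named were CG11696, those nearest to the 20 strongest X peaks, the 4 members at most of each gene list whose promoter peaks were highest, and the 5 genes with the most summits, with a tie for the last. Other named genes, and CTATTA, were picked after their values were seen. Members and lists were chosen with earlier results of these data known.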

Additional observations from a re-analysis of the deposited data

Results flagged for a closer look

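The conservative list also held 11 peaks on 10 scaffolds that are assigned to X without a place on it. They stand outside the comparisons above, and were noticed because peaks were called in sequence that no comparison used. Their highest signal value was 385. They have no position along X and were given no class.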

How the results depend on the processing

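The intron excess and the promoter deficit of X kept their direction and their call under all alternatives run, with ratios to the arms that included 1.38 to 1.44 for introns and 0.805 to 0.843 near TSSs in the lists of single replicates, and the ratio of peaks per TSS stayed past the threshold throughout. With a TSS window of 250 bp 5 classes differed in place of 3. Peaks per base did not pass without 3R (1.05) or with the missing peaks added back (1.08), which raised the count on the arms alone. Peaks per sub-threshold peak did not pass with the optimal list (1.08). The share of bound genes did not pass with a window of 1000 bp (0.89), the stronger 50% of peaks (0.895) or 2R among the arms (0.874), and was 0.865 to 0.892 in single replicates. Close neighbours did not pass without 3R (1.07), at 10 kb (1.05), uncollapsed (1.05) or with peaks added back (1.09). Stronger peaks did not pass within the stronger 50% (1.03), and single replicates gave 1.06 to 1.14. The share in replicate 1's list did not pass with 50% reciprocal overlap (1.07), against its ranked list (1.0) or within the stronger 50% (1.01), and that in replicate 2's list turned to 0.977 within the stronger 50%. The count of sequences that differ fell from 1 to 0 uncollapsed, in the stronger 50%, with 25 bp to either side, without 3R and in single replicates (0 in both). For CACACACA the ratio of X to the arms turned from 0.811 to 1.41 with 100 bp to either side, and it was 0.816 to 1.33 in single replicates. The cause was not tested in any of these. No paired analysis was possible because the series has a single group of 2 replicates. The unknown depth limits all counts of called peaks, and a stretch without a peak may hold weaker contacts.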

Other observations

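Of 483 X genes of the class ncRNA 25 had a summit within 500 bp of a TSS (5.18%), against 3.65% of this class on 2L, 3L and 3R and 8.97% of protein-coding genes of X. These differences were not tested. Of 31 snoRNA genes of X 2 had a summit there (6.45%), snoRNA:Psi28S-1060 and snoRNA:Psi28S-1232, against 4 of 141 on the arms (2.84%). Of 24 transfer RNA genes 1 had one (4.17%), tRNA:Phe-GAA-1-2, against 4 of 168 on the arms (2.38%). Of 74 pseudogenes 0 had one, against 3 of 137 (2.19%). These counts are small, and their differences were not tested either. The strongest noncoding case was lncRNA:CR45541, with 311 in both replicates.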
